A study of Mus musculus with 95 samples.

Results

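The 10 genes described here take up fatty acids into cells, release them from lipoproteins, carry them in the cytosol or activate them: Cd36, Lpl, Vldlr, Fabp1, Fabp2, Fabp4, Slc27a1, Slc27a2, Acsl3 and Acsl4. They were chosen by symbol, with earlier results of these data known. Each was measured by 1 probe set, and they are 10 of the 16464 genes with a symbol on the array. RNA of mouse liver was hybridised to 95 Affymetrix arrays, and the mice were C57BL/6 males of 10 weeks and 21 to 27 g that were dosed by oral gavage. The compounds were amiodarone (AMD), an antiarrhythmic drug, valproic acid (VPA), an antiepileptic drug, and tetracycline (TET), an antibiotic, and the series names the fatty liver, or steatosis, that they induce as its subject. The comparisons ask how each compound changed these genes at each dose and time.

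After 1 and 4 days only the high dose of each compound was sampled, with 4 arrays a group, and after 11 days all 3 doses were, with 5 arrays a group. Amiodarone was given at 6.7, 20 and 60 mg/kg. For valproic acid the doses were 125, 250 and 500 mg/kg. Tetracycline doses were 14.8, 44 and 133 mg/kg. Amiodarone and valproic acid groups shared 1 set of phosphate-buffered saline (PBS) controls, so their changes are not independent of each other. Tetracycline groups had their own vehicle, water with ascorbic acid. Vehicle groups had as many arrays as the treated groups of their day. The median log2 value of an array was 3.06 to 3.13, and a level near or below that is close to the background. A difference between treated and vehicle means is given as a log2 change ± its standard error (SE) from a limma fit, and a gene is said to have risen or fallen, or to be called, at an adjusted p under 0.05 over all genes. A liver sample holds several cell types, so fewer cells of a type and less RNA per cell cannot be told apart.

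Fatty acids reach the liver bound to albumin and inside lipoproteins. Lipoprotein lipase, the product of Lpl, cuts them from lipoprotein triglyceride at the vessel wall, and the VLDL receptor, the product of Vldlr, binds triglyceride-rich particles. CD36 and the fatty acid transport proteins of the Slc27 family promote uptake at the cell membrane, and the latter also activate fatty acids to acyl-CoA. Fatty acid binding proteins carry them in the cytosol, and long-chain acyl-CoA synthetases of the Acsl family trap them as acyl-CoA for storage or oxidation. Several of these genes are textbook targets of the nuclear receptor PPARA in the liver, and Cd36, Lpl and Fabp4 are well known targets of PPARG in fat tissue.

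Promoter sequences were looked up because many of the genes moved together under amiodarone. RefSeq on GRCm38.p6 gave 11 promoters for 8 of the 10 genes, all but Lpl and Fabp4, each from 250 bases before to 50 bases after the gene start. The nuclear receptor half-site AGGTCA, searched on both strands, was found in the promoters of Cd36, Fabp1 and Slc27a2, which are the 3 shown here. All 3 genes rose with amiodarone on day 11. Vldlr, Fabp2 and Slc27a1 rose in that group as well, and their promoters held 0 half-sites. The promoters of Acsl3 and Acsl4, which were not called there, also held 0. Capitals mark the half-site, which reads TGACCT where it lies on the other strand, and in Fabp1 also the pair described in the next paragraph.
Cd36, chr5:17835847-17836146, minus strand: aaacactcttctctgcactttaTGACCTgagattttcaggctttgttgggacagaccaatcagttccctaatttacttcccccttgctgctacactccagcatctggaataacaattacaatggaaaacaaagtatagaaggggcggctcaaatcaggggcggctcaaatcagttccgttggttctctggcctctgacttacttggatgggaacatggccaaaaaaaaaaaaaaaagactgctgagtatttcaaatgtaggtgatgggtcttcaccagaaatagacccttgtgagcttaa
Fabp1, chr6:71199629-71199928, plus strand: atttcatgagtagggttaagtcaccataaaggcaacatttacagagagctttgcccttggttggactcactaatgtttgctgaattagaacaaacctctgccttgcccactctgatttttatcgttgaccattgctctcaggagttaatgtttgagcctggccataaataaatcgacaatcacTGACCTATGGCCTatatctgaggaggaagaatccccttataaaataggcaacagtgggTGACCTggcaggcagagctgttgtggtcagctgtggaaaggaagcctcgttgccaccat
Slc27a2, chr2:126552774-126553073, plus strand: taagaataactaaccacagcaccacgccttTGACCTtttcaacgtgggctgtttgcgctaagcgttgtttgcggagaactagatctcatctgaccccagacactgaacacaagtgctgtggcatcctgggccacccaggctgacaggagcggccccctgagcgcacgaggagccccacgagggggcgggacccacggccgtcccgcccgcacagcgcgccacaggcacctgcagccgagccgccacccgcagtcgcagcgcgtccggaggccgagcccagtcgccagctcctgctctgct

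The half-site was present in 3 of the 11 promoters, and in 16.3% of all 32851 promoters of the table. A pair of half-sites spaced by 1 base, the arrangement that PPAR and RXR dimers bind, was searched as AGGTCANAGGTCA and was in 0 of the 11 promoters and in 0.0396% of all. In the looser form AGGNCANAGGNCA it was in the Fabp1 promoter alone, 67 bases before the gene start, and in 0.381% of all promoters. These are matches of letters and overlap with the half-site by construction. A TATA box, TATAAA, lay 30 bases before the start of Fabp1 and in 13.6% of all promoters.

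In the vehicle livers the 10 genes spanned nearly the whole range of the arrays. Over the 26 vehicle arrays Fabp1, the liver fatty acid binding protein gene, averaged 12.9 (log2) and ranked at the 99.9th percentile of genes. Slc27a2, which encodes a very long-chain acyl-CoA synthetase and transporter, averaged 12.3, and Fabp2, named for the intestinal binding protein, averaged 10.1. Lpl and Fabp4 averaged 6.27 and 6.25, Acsl4 5.76, Cd36 5.22 and Acsl3 3.78. Slc27a1 (3.08) and Vldlr (2.63) lay at or below the array medians, where RMA values understate fold changes. These levels come from different probe sets, so they do not rank the transcripts against each other.

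**Figure D1:**
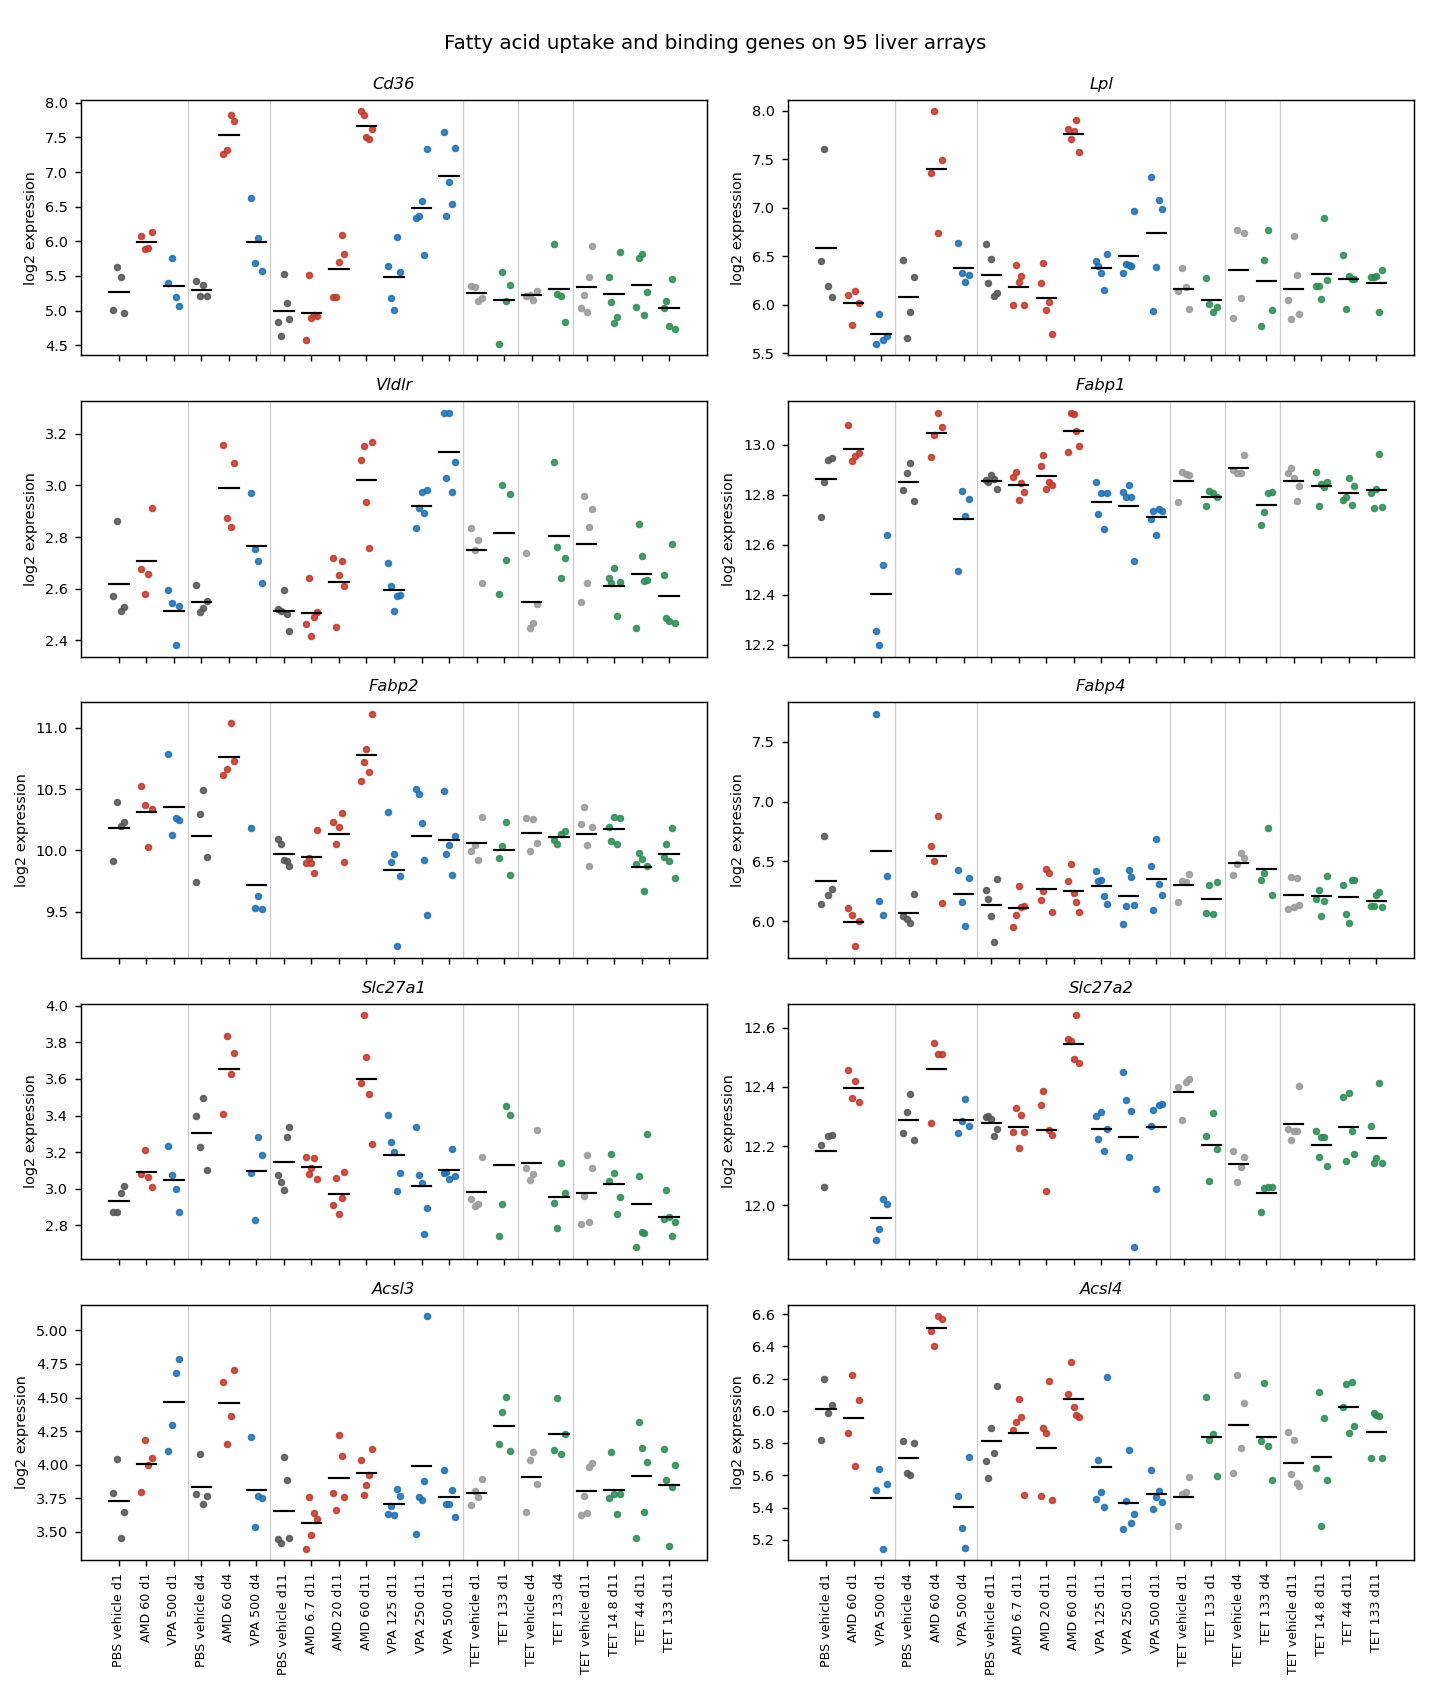
Log2 expression of the 10 genes on each of the 95 arrays, 1 panel per gene, with 1 point per array and a black line at the group mean. Groups run along the horizontal axis by compound, dose in mg/kg and day (d), with PBS vehicle, amiodarone and valproic acid groups before the tetracycline groups, and vertical axes differ between panels and do not start at 0. Cd36 stood between 7.48 and 7.87 with 60 mg/kg of amiodarone on day 11, above all 26 vehicle arrays, which reached 5.94 at most.

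Counted over the 10 genes, amiodarone at 60 mg/kg raised 7 on day 4 and 7 on day 11 and lowered 0 on either day. Of all genes, 6.21% were called on day 4 and 7.05% on day 11. The 10 genes were chosen with earlier results of these data known, so a count above those shares is no independent evidence. The median log2 change of the 10 genes was 0.55 on day 4 and 0.37 on day 11, beside -0.01 over all genes on both days. On day 1 amiodarone changed 0 of the 10 in limma (background 0.796%), with 4 at an unadjusted p under 0.05, as had 9.14% of all genes. The doses of 6.7 and 20 mg/kg changed 0 as well, with backgrounds of 0% and 0.322%, and 0 and 1 of the 10 genes had an unadjusted p under 0.05. Of all genes 4.71% and 11.1% did, so the 1 gene at 20 mg/kg is no more than the share over all genes.

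Valproic acid at 500 mg/kg gave another pattern. On day 1 it raised 1 and lowered 4 of the 10 genes, with 15.7% of all genes called. On day 4 it changed 0 (background 2.36%), with 5 of the 10 and 12.5% of all genes at an unadjusted p under 0.05, and on day 11 it raised 2 (background 9.03%). The dose of 250 mg/kg raised the same 2 genes on day 11, Cd36 and Vldlr (background 4.26%), and 125 mg/kg changed 0 (background 0.0547%), with 1 of the 10 and 8.75% of all genes at an unadjusted p under 0.05. On day 1 the median log2 change of the 10 genes was -0.01, beside 0.01 over all genes.

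**Figure D2:**
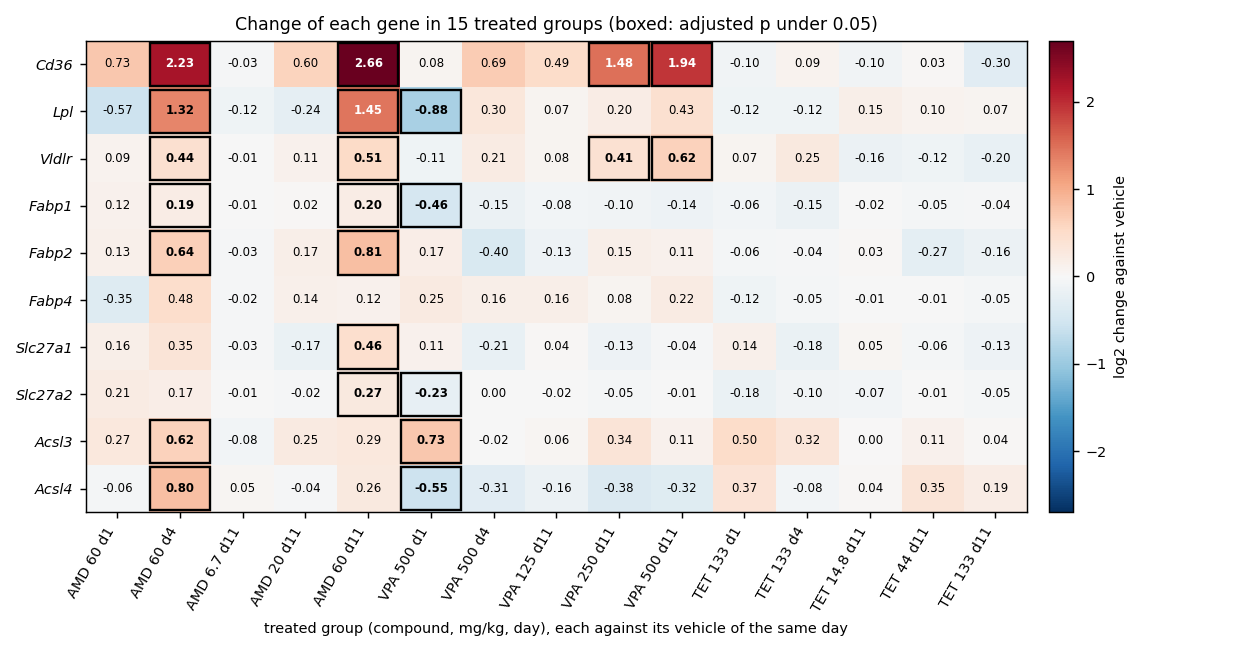
Log2 change of each of the 10 genes (rows) in each of the 15 treated groups (columns: compound, dose in mg/kg and day d) against the vehicle of the same day, printed in each cell and coloured from blue (lower) to red (higher). Boxes mark changes with an adjusted p under 0.05, which fill 7 cells in each of the columns of amiodarone at 60 mg/kg on days 4 and 11 and no cell for tetracycline.

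Cd36 (Entrez Gene 12491), the membrane fatty acid transporter and scavenger receptor, changed the most of the 10 genes. On day 11 the 5 PBS arrays read 4.64, 4.84, 4.88, 5.11 and 5.53, and the 5 arrays with 60 mg/kg of amiodarone read 7.48, 7.51, 7.61, 7.82 and 7.87. The groups lay far apart, and the level with amiodarone was 6.31-fold that of vehicle (log2 change 2.66 ± 0.22, adjusted p = 4.8e-16). On day 4 the PBS arrays lay between 5.20 and 5.43 and the amiodarone arrays read 7.26, 7.32, 7.73 and 7.83, a 4.70-fold rise (2.23 ± 0.25, adjusted p = 1.4e-10).

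Already on day 1 the 4 amiodarone arrays for Cd36 (5.88, 5.90, 6.07 and 6.13) lay above the 4 PBS arrays (4.96, 5.01, 5.49 and 5.63). The day 1 difference of 0.73 ± 0.25 did not pass the test over all genes (adjusted p = 0.22). At 20 mg/kg on day 11 the mean was 5.60 ± 0.40 (SD, n = 5) against 5.00 ± 0.34 with PBS, and the groups overlapped (0.60 ± 0.22, adjusted p = 0.24). At 6.7 mg/kg the mean was 4.97 ± 0.34 and the difference was -0.03 ± 0.22.

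Cd36 also rose with valproic acid on day 11, at the mid and the high dose. The 5 arrays with 500 mg/kg read 6.37, 6.54, 6.86, 7.35 and 7.57, all above the PBS arrays, a 3.83-fold rise (1.94 ± 0.22, adjusted p = 8.7e-10). With 250 mg/kg they read 5.80, 6.34, 6.37, 6.58 and 7.33, a 2.80-fold rise (1.48 ± 0.22, adjusted p = 6.3e-06), and again no array overlapped with PBS. The valproic acid arrays were more widely spread than those of amiodarone, with an SD of 0.52 at 500 mg/kg against 0.18. With 125 mg/kg the mean of 5.49 ± 0.41 was not called (0.49 ± 0.22, adjusted p = 0.52).

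Earlier in the valproic acid course Cd36 was not called. On day 4 the 4 arrays (5.58, 5.69, 6.05 and 6.63) lay above the PBS arrays, with a difference of 0.69 ± 0.25 (adjusted p = 0.16). On day 1 the groups overlapped and the difference was 0.08 ± 0.25. From the top, the group means of Cd36 ran from amiodarone at 60 mg/kg on day 11 (7.66) and day 4 (7.53), which differ by less than the SD of the day 4 group, to valproic acid at 500 mg/kg (6.94) and 250 mg/kg (6.48) on day 11, which differ by less than the SD of either. Amiodarone on day 1 (6.00) and valproic acid on day 4 (5.99) came next, and the other 15 groups had means from 4.97 to 5.60.

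Lpl (Entrez Gene 16956), the gene of the lipase that frees fatty acids from lipoproteins, rose with amiodarone and fell with valproic acid at different times. On day 11 the PBS arrays read 6.09, 6.12, 6.22, 6.47 and 6.63 and the amiodarone arrays at 60 mg/kg read 7.57, 7.71, 7.79, 7.81 and 7.90. The rise was 2.73-fold (1.45 ± 0.20, adjusted p = 6.3e-08) with no overlap. On day 4 the amiodarone arrays read 6.74, 7.36, 7.49 and 7.99 against 5.66, 5.92, 6.28 and 6.46, a 2.49-fold rise (1.32 ± 0.22, adjusted p = 1.4e-05). Lower amiodarone doses gave no call, with means of 6.19 ± 0.19 at 6.7 mg/kg and 6.07 ± 0.27 at 20 mg/kg.

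On day 1 Lpl stood at 5.60, 5.64, 5.67 and 5.91 with 500 mg/kg of valproic acid against 6.07, 6.20, 6.45 and 7.61 with PBS. It fell by 0.88 ± 0.22 on the log2 scale (adjusted p = 0.0024), to 0.544 of the vehicle level. The PBS array at 7.61, array 25, stood apart from the other vehicle arrays, and without it the difference was -0.54 and not called (adjusted p = 0.11), although the groups still did not overlap. In a fit of only the arrays compared it was not called either (adjusted p = 0.084). On array 25 the summed level of 12 Kupffer cell and macrophage markers was 11.59 (log2), against 10.86 to 10.94 on the other PBS arrays of day 1. The part of those cells in the Lpl value was not tested.

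Amiodarone on day 1 gave Lpl values of 5.79 to 6.15, a difference of -0.57 ± 0.22 from the same vehicle that was not called (adjusted p = 0.34). On the later days of valproic acid Lpl was not called either, with differences of 0.30 ± 0.22 on day 4 and 0.43 ± 0.20 on day 11 (adjusted p = 0.19). Of the 5 arrays of day 11 at 500 mg/kg, 3 read 6.98, 7.08 and 7.32, above all PBS arrays, and 2 read 5.94 and 6.39, within or below them. Without array 28 of that group the difference was 0.64 and was called (adjusted p = 0.035).

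Vldlr (Entrez Gene 22359), the gene of the VLDL receptor, rose on the same occasions as Cd36, from a level close to background. On day 11 the PBS arrays lay between 2.44 and 2.60, and the arrays with 500 mg/kg of valproic acid read 2.98, 3.03, 3.09, 3.28 and 3.28. The log2 change was 0.62 ± 0.08 (adjusted p = 6.8e-08). With 250 mg/kg they lay between 2.83 and 2.98 (0.41 ± 0.08, adjusted p = 0.0008), and with 60 mg/kg of amiodarone between 2.76 and 3.17 (0.51 ± 0.08, adjusted p = 3.7e-06). In none of these 3 groups did an array overlap with PBS.

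On day 4 Vldlr rose with amiodarone by 0.44 ± 0.09 (adjusted p = 0.0006), from 2.51 to 2.61 on the PBS arrays to 2.84, 2.88, 3.09 and 3.16. The valproic acid arrays of day 4 (2.62 to 2.97) lay just above the PBS arrays, with a difference of 0.21 ± 0.09 that was not called (adjusted p = 0.28). On day 1 the differences were 0.09 ± 0.09 for amiodarone and -0.11 ± 0.09 for valproic acid. Of the 21 group means of Vldlr the highest, 3.13, only reached the array medians, and the folds of 1.32 to 1.53 on day 11 may therefore be understated.

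Fabp1 (Entrez Gene 14080), the most abundant fatty acid carrier of the liver cytosol, moved in opposite directions under the 2 drugs, by small amounts at a high level. With amiodarone on day 11 the arrays read 12.97, 13.00, 13.06, 13.12 and 13.13 against 12.82 to 12.88 with PBS, a rise of 0.20 ± 0.05 (adjusted p = 0.0097). On day 4 the rise was 0.19 ± 0.06 (adjusted p = 0.037), from 12.78 to 12.93 on the PBS arrays to 12.95 to 13.13, with no overlap on either day. In a fit of only the arrays compared neither rise was called (adjusted p = 0.17 on day 4 and 0.076 on day 11), and on day 4 the call was also lost with array medians centred (adjusted p = 0.062) and without any 1 of 6 of the 8 arrays.

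With valproic acid on day 1 Fabp1 read 12.20, 12.26, 12.52 and 12.64 against 12.71, 12.85, 12.94 and 12.95 with PBS. It fell by 0.46 ± 0.06 (adjusted p = 6.7e-09), to 0.727 of the vehicle level, and every valproic acid array lay below every PBS array. On days 4 and 11 it was lower by 0.15 ± 0.06 and 0.14 ± 0.05, which were not called (adjusted p = 0.23 and 0.093). Fabp1 lies near the top of the range of the arrays, whose highest value was 13.9, where signals can saturate.

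Fabp2 (Entrez Gene 14079) rose with amiodarone. On day 11 it read 10.57, 10.64, 10.72, 10.83 and 11.11 at 60 mg/kg against 9.87 to 10.09 with PBS, a 1.75-fold rise (0.81 ± 0.14, adjusted p = 1.7e-05). On day 4 it read 10.61, 10.67, 10.73 and 11.04 against 9.74, 9.95, 10.30 and 10.49, a 1.56-fold rise (0.64 ± 0.16, adjusted p = 0.004) that was not called without PBS array 40 (0.52, adjusted p = 0.054). With valproic acid it was not called, and the 4 arrays of day 4 included the lowest group mean of the gene, 9.72 ± 0.32 (difference -0.40 ± 0.16, adjusted p = 0.2). Of 7 measured enterocyte markers, 6 (Vil1, Lct, Cdx1, Cdx2, Alpi and Muc2) averaged 2.33 to 2.67 over all arrays, below the array medians. The other, the aminopeptidase gene Anpep, averaged 3.56 and rose with amiodarone on day 11 (0.33 ± 0.10, adjusted p = 0.028), as Fabp2 did. The summed level of the 7 was 5.59 to 5.65 with amiodarone on day 11 against 5.58 to 5.62 with PBS, and the part of Anpep-expressing cells in the Fabp2 value was not tested.

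Fabp4 (Entrez Gene 11770), the binding protein gene of fat cells and macrophages, was not called in any of the 15 treated groups. Its highest group mean against vehicle was that of amiodarone on day 4, where the arrays read 6.16, 6.51, 6.63 and 6.88 against 5.98, 6.02, 6.05 and 6.23 with PBS. That difference of 0.48 ± 0.16 just missed the threshold (adjusted p = 0.056) and passed with array quality weights (0.50, adjusted p = 0.0088). Of the valproic acid arrays of day 1, array 23 read 7.73 and the other 3 read 6.05, 6.17 and 6.38. The summed level of 5 adipocyte markers on array 23 was 5.10, the lowest of its group, whose other arrays lay between 5.34 and 5.49. Its sum of 12 Kupffer cell and macrophage markers was 11.05, in a group that ran from 11.03 to 11.61. The part of either cell type in the Fabp4 value of array 23 was not tested. Over all arrays Adipoq (2.45), Lep (2.52) and Cidea (2.73) averaged below the array medians, Retn (3.09) at them, and the lipase gene Lipe (3.86), which is also known from liver, above them.

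Slc27a2 (Entrez Gene 26458), the main fatty acid transport protein of peroxisomes and endoplasmic reticulum in hepatocytes along with Slc27a5, was called on 2 of the 3 occasions on which Fabp1 was, in the same direction. On day 11 with amiodarone it read 12.48, 12.49, 12.55, 12.56 and 12.64 against 12.24 to 12.30 with PBS, a rise of 0.27 ± 0.06 (adjusted p = 0.0016). On day 1 with valproic acid it read 11.88, 11.92, 12.01 and 12.02 against 12.06, 12.20, 12.23 and 12.24, and fell by 0.23 ± 0.07 (adjusted p = 0.015). The groups did not overlap in either case. The fall was not called in a fit of only the arrays compared (adjusted p = 0.11) or without PBS array 82 (adjusted p = 0.054) or valproic acid array 23 (adjusted p = 0.059). Amiodarone gave 0.21 ± 0.07 on day 1, where no array overlapped with PBS, and 0.17 ± 0.07 on day 4, neither of them called (adjusted p = 0.17 and 0.15).

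Slc27a1 (Entrez Gene 26457), the transport protein best known from muscle and fat, rose with amiodarone on day 11. It read 3.25, 3.52, 3.57, 3.72 and 3.95 against 2.99, 3.03, 3.08, 3.28 and 3.34 with PBS, a rise of 0.46 ± 0.11 (adjusted p = 0.0018) in which the lowest amiodarone array lay within the vehicle range. On day 4 the difference was 0.35 ± 0.12, with arrays from 3.41 to 3.83 against 3.11 to 3.49, and just missed the threshold (adjusted p = 0.067). It was called with blocks of 24 sample numbers (0.42, adjusted p = 0.019), with array quality weights (adjusted p = 0.017), under the filter on dim genes (adjusted p = 0.038), and without amiodarone array 17 or PBS array 44 (adjusted p = 0.027 and 0.041). In the other 13 treated groups it was not called. The vehicle level lay near the array median, so the size of these changes may be understated. All 6 skeletal muscle markers of the list had means below or about the array median, at 2.34 to 3.11.

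Acsl4 (Entrez Gene 50790), the synthetase that prefers arachidonic acid, rose with amiodarone on day 4 and fell with valproic acid on day 1. On day 4 with amiodarone it read 6.40, 6.49, 6.57 and 6.59 against 5.60, 5.62, 5.80 and 5.81 with PBS, a 1.75-fold rise (0.80 ± 0.15, adjusted p = 7.1e-05). On day 1 with valproic acid it read 5.15, 5.51, 5.55 and 5.64 against 5.82 to 6.20, and fell by 0.55 ± 0.15 (adjusted p = 0.0045), to 0.684 of the vehicle level. In both cases the groups did not overlap. By day 11 amiodarone gave 0.26 ± 0.13 and valproic acid at 500 mg/kg gave -0.32 ± 0.13, neither of them called (adjusted p = 0.29 and 0.13). Valproic acid at 250 mg/kg gave -0.38, which was not called either. It was called after a repeated quantile normalization (-0.42, adjusted p = 0.048).

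Acsl3 (Entrez Gene 74205), a synthetase of the endoplasmic reticulum and lipid droplets, rose with both drugs at different times. With valproic acid on day 1 it read 4.10, 4.29, 4.68 and 4.79 against 3.45, 3.65, 3.79 and 4.04 with PBS, a 1.66-fold rise (0.73 ± 0.18, adjusted p = 0.0014), the 1 gene of the 10 that rose on that day. With amiodarone on day 4 it read 4.15, 4.36, 4.61 and 4.71 against 3.70, 3.76, 3.78 and 4.08 (0.62 ± 0.18, adjusted p = 0.018), and without any 1 of 5 of the 8 arrays that call was lost (adjusted p from 0.051 to 0.094). On day 11 it was not called in any group. Valproic acid array 67 of the 250 mg/kg group read 5.10, the highest value of Acsl3 on any array, while the other 4 arrays of that group read 3.49 to 3.88.

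Tetracycline at 133 mg/kg changed 0 of the 10 genes in limma on day 1 (background 0.65%), day 4 (background 0%) and day 11 (background 0%), with 3, 2 and 1 of them at an unadjusted p under 0.05. Over all genes 11.3%, 8.42% and 5.39% passed that threshold, so the day 11 count is near its share. The doses of 14.8 and 44 mg/kg changed 0 as well (backgrounds 0% and 0.0243%), with 0 and 1 at an unadjusted p under 0.05, beside 6.52% and 10.1% of all genes. For Cd36 on day 11 the 95% confidence interval of the difference at 133 mg/kg ran from -0.75 to 0.14, and for Lpl from -0.34 to 0.47, both below the changes with amiodarone of 2.66 and 1.45. For Fabp1 it ran from -0.15 to 0.07. For Vldlr the difference was -0.20 ± 0.08, and the interval from -0.37 to -0.04 lay below 0 although the gene was not called (adjusted p = 0.86).

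The differences for tetracycline that came nearest to the threshold concerned the synthetases on day 1. Acsl3 read 4.10, 4.16, 4.40 and 4.51 with 133 mg/kg against 3.70, 3.76, 3.80 and 3.89 with its vehicle (0.50 ± 0.18, adjusted p = 0.19). Acsl4 read 5.59, 5.82, 5.86 and 6.08 against 5.29, 5.48, 5.50 and 5.59 (0.37 ± 0.15, adjusted p = 0.27). The treated arrays lay above the vehicle arrays for both genes, for Acsl4 by a narrow margin. On day 4 at 133 mg/kg, Fabp1 (12.68 to 12.81 against 12.89 to 12.96) and Slc27a2 (11.98 to 12.06 against 12.08 to 12.18) lay below their vehicle without overlap. Neither was called. The tetracycline vehicle itself was lower than PBS for Acsl4 on day 1, by 0.55 ± 0.15 on the log2 scale (adjusted p = 0.13), without overlap.

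None of the genes passed the threshold between the vehicles of a day, or between PBS livers of days 1 and 11. Other pairs of vehicle days were not tested. Between the vehicles 0 of the 10 were called on day 1 (background 0.0911%), day 4 (background 0.0121%) and day 11 (background 0%), with 2, 2 and 1 at an unadjusted p under 0.05, beside 9.66%, 6.82% and 8.55% of all genes. Between PBS livers of day 11 and day 1, 0 were called (background 0%), with 0 at an unadjusted p under 0.05 (7.65% of all genes), and differences ran from -0.28 to 0.21. The interval for Cd36 in that comparison ran from -0.75 to 0.20, and that for Lpl, with its high array on day 1, from -0.70 to 0.15.

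Across vehicle and the 3 doses of day 11, the slope of expression on the rank of the dose was called upward for 7 genes with amiodarone (background 7.02%), for 2 with valproic acid (background 9.94%) and for 0 with tetracycline (background 0%, with 2 of the 10 and 5.37% of all genes at an unadjusted p under 0.05). The 7 were the genes that rose at 60 mg/kg, and the 2 were Cd36 and Vldlr. Group means of Cd36 from vehicle to high dose were 5.00, 4.97, 5.60 and 7.66 with amiodarone, and 5.00, 5.49, 6.48 and 6.94 with valproic acid. With amiodarone the rise thus lay mostly between 20 and 60 mg/kg, and with valproic acid it was spread over the doses. The slopes per dose step were 0.86 ± 0.07 and 0.68 ± 0.07.

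Other genes had a like dose course with amiodarone. Lpl means were 6.31, 6.19, 6.07 and 7.76, Fabp2 means 9.97, 9.94, 10.14 and 10.77, and Slc27a2 means 12.28, 12.26, 12.25 and 12.55. None of these genes was called at the 2 lower doses. The upward slope of Slc27a1 (0.12 ± 0.03, adjusted p = 0.011) was not called without amiodarone array 31 (adjusted p = 0.094). Vldlr with valproic acid went from 2.51 to 2.59, 2.92 and 3.13 (slope 0.22 ± 0.03, adjusted p = 2.2e-09).

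The effect of the high dose was compared between days, each day against its own vehicle. For amiodarone, 3 genes had a larger effect on day 4 than on day 1 (background 0.541%), Lpl by 1.88 ± 0.32 (adjusted p = 0.00025), Cd36 by 1.51 ± 0.36 (adjusted p = 0.022) and Acsl4 by 0.86 ± 0.21 (adjusted p = 0.032). Day 11 exceeded day 1 for 2 genes (background 0.109%), Lpl by 2.02 ± 0.30 (adjusted p = 1.6e-05) and Cd36 by 1.93 ± 0.34 (adjusted p = 0.0007). The 3 day 4 differences became 1 with blocks of 24 sample numbers in the model. They also became 1 without any 1 of amiodarone arrays 45 and 69 and PBS arrays 25, 41 and 50, and that 1 was Lpl, which was itself not called in a fit of only the arrays compared (adjusted p = 0.08).

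For valproic acid, 2 genes had a higher value of the effect on day 4 than on day 1 (background 6.07%) and 4 on day 11 (background 12.3%). On day 11 these were Cd36 (1.85 ± 0.34, adjusted p = 2e-05), Lpl (1.31 ± 0.30, adjusted p = 0.00085), Vldlr (0.72 ± 0.12, adjusted p = 6.8e-06) and Fabp1 (0.32 ± 0.08, adjusted p = 0.0036). On day 4 they were Lpl (1.17 ± 0.32) and Fabp1 (0.31 ± 0.09), whose effects had been falls on day 1. Without PBS array 25 the day 4 difference of Lpl was 0.83 and not called (adjusted p = 0.11), and without valproic acid array 79 that of Fabp1 was 0.24 and not called (adjusted p = 0.087). In a fit of only the arrays compared neither was called on day 4, nor Fabp1 on day 11 (adjusted p = 0.1). Acsl3 went the other way, by -0.75 on day 4 and -0.63 on day 11, and was not called. With array quality weights both of its differences were called (-0.88 and -0.77, adjusted p = 0.0099 and 0.014). For tetracycline 0 of the genes differed between days in limma (backgrounds 0% and 0%), with 1 gene at an unadjusted p under 0.05 on each later day, beside 7.62% and 5.68% of all genes.

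**Figure D3:**
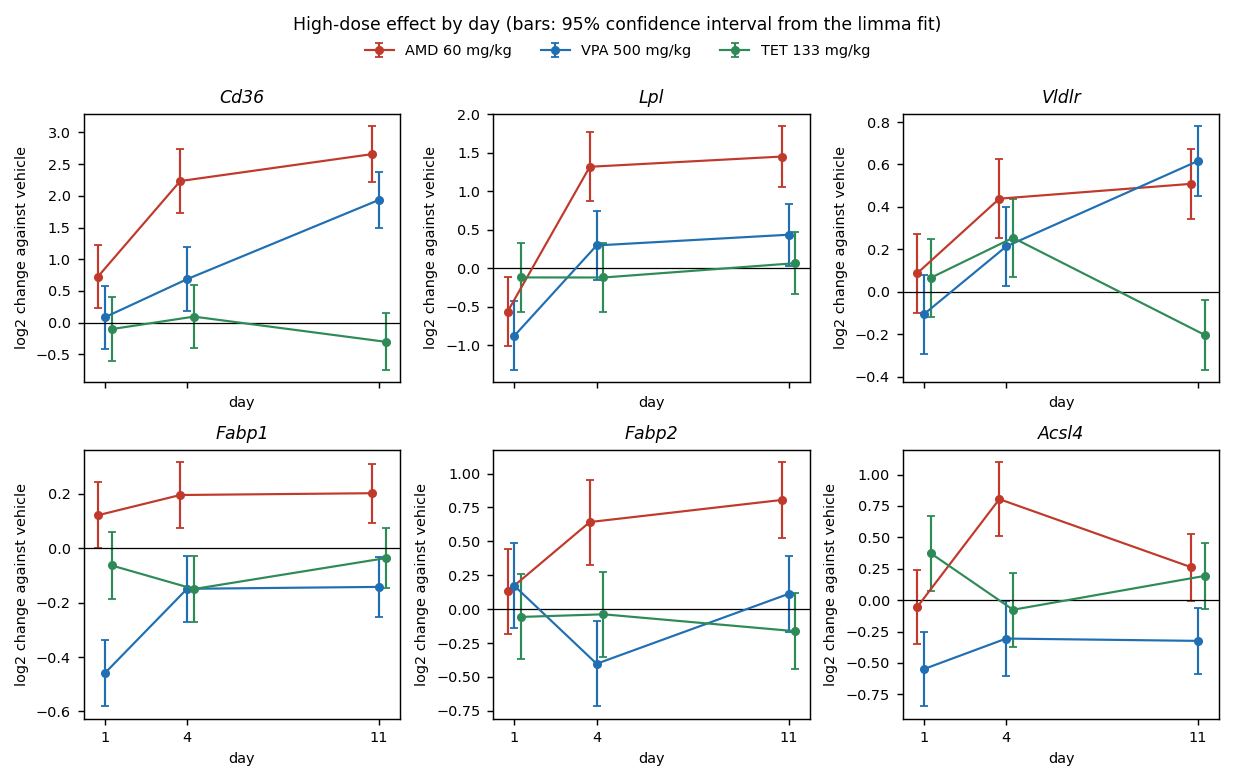
Log2 change against the vehicle of the same day (vertical axis) on days 1, 4 and 11 (horizontal axis, to scale with small offsets) at the high dose of each compound for 6 of the genes. Points are limma estimates and bars their 95% confidence intervals, from 4 arrays a group on days 1 and 4 and 5 on day 11, and the lines only join points of 1 compound. For Lpl the amiodarone values go from -0.57 to 1.32 and 1.45, and for Fabp1 the amiodarone values lie above and the valproic acid values below 0 on all 3 days.

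Amiodarone at 60 mg/kg and valproic acid at 500 mg/kg were compared directly on each day. On day 4 amiodarone was higher for 7 of the 10 genes (background 8.55%) and on day 11 also for 7 (background 8.06%), while on day 1 it was higher for 3 and lower for 1 (background 16.2%). The 2 doses are each the highest of its compound and are not matched in amount. Fabp1 was higher with amiodarone on all 3 days, by 0.58 ± 0.06, 0.34 ± 0.06 and 0.34 ± 0.05, and its groups did not overlap on any day. Acsl4 was also higher on all 3 days, by 0.49 ± 0.15, 1.11 ± 0.15 and 0.59 ± 0.13. The day 1 call of Acsl4 was lost without amiodarone array 13 or valproic acid array 80 (adjusted p = 0.079 and 0.096).

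Cd36 was higher with amiodarone by 1.55 ± 0.25 on day 4 (adjusted p = 4.1e-06) and by 0.72 ± 0.22 on day 11 (adjusted p = 0.029). The second difference, between overlapping groups, was not called without any 1 of amiodarone arrays 12 and 31 and valproic acid arrays 28, 49 and 78 (adjusted p from 0.063 to 0.14). Lpl was higher by 1.02 ± 0.22 on day 4 and 1.02 ± 0.20 on day 11, Fabp2 by 1.05 ± 0.16 and 0.69 ± 0.14, and Slc27a1 by 0.56 ± 0.12 and 0.50 ± 0.11. Slc27a2 was higher on day 1 (0.44 ± 0.07) and day 11 (0.28 ± 0.06), and Acsl3 on day 4 (0.64 ± 0.18), a call lost without amiodarone array 93 or valproic acid array 8 (adjusted p = 0.062 and 0.07).

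Vldlr did not differ past the threshold between the drugs on any day. Its differences were 0.19 ± 0.09 on day 1, 0.23 ± 0.09 on day 4 and -0.11 ± 0.08 on day 11, with a 95% interval on day 11 from -0.27 to 0.06. Fabp4 was lower with amiodarone on day 1, by 0.59 ± 0.16 (adjusted p = 0.0038). The call was lost without the valproic acid array at 7.73 (-0.21, adjusted p = 0.32) and in a fit of only the arrays compared (adjusted p = 0.27), and the groups overlapped.

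**Figure D4:**
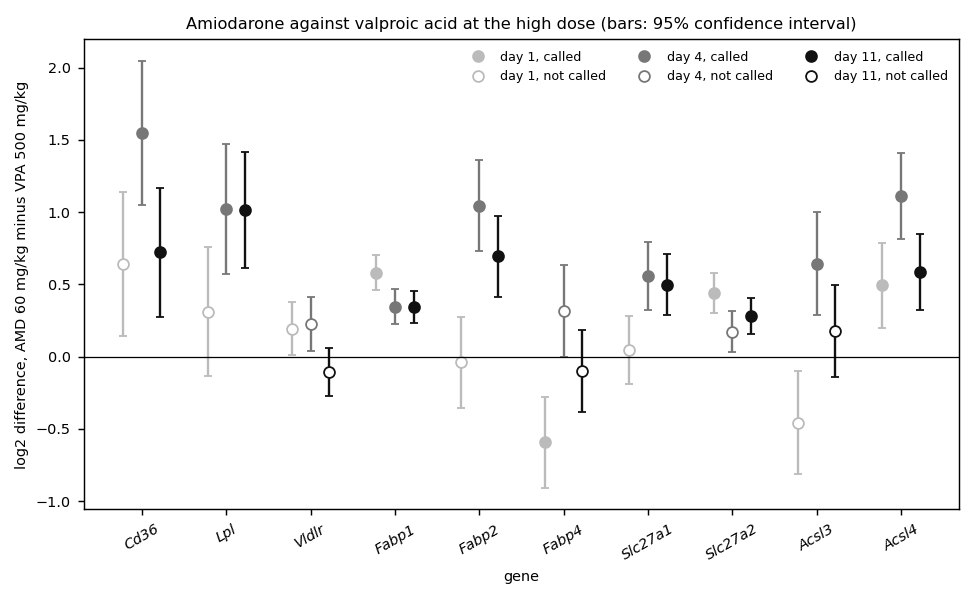
Log2 difference between amiodarone at 60 mg/kg and valproic acid at 500 mg/kg (vertical axis) for each of the 10 genes (horizontal axis) on days 1, 4 and 11, with 95% confidence intervals from the limma fit. Filled points have an adjusted p under 0.05, and 7 genes are filled on day 4 and 7 on day 11, all above 0, while Vldlr is open on every day.

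Other genes of the same steps were counted from lists. Of 13 measured relatives (other transport proteins, binding proteins, acyl-CoA synthetases and acyl-CoA binding proteins), amiodarone raised 3 and lowered 0 on day 11 (7.05% of all genes called), with a list median of 0.07 beside -0.01 over all genes. They were the mitochondrial and intestinal synthetase gene Acsl5 (0.57 ± 0.09, adjusted p = 6.9e-07), the caveolin gene Cav1 (0.45 ± 0.14) and the acyl-CoA binding protein gene Dbi (0.30 ± 0.09). On day 4 (6.21% called) it raised Acsl5 (0.49 ± 0.10) and lowered Slc27a5, the bile acid-CoA synthetase gene (-0.19 ± 0.06). Valproic acid on day 1 (15.7% called) raised 1 and lowered 3 of the 13, led by the peroxisomal acyl-CoA binding protein gene Acbd5 (-0.69 ± 0.10), Acsl5 (-0.38 ± 0.10) and Acbd4 (0.26 ± 0.09), and on day 11 (9.03% called) it raised 1, Acsl5 (0.45 ± 0.09). Acsl5 thus rose with both drugs on day 11.

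Of 17 measured regulators of lipoprotein lipase, other lipases and lipoprotein receptors, amiodarone raised 2 and lowered 4 on day 11 (list median -0.07, 7.05% of all genes called). Angptl8, which encodes a hepatic inhibitor of lipoprotein lipase, fell by 1.61 ± 0.49 (adjusted p = 0.029), while the inhibitor gene Angptl4 (0.90 ± 0.25) and the endothelial lipase gene Lipg (0.58 ± 0.14) rose. On day 4 (6.21% called) the 1 called gene was Scarb1, the HDL receptor gene, which fell by 0.57 ± 0.11. Valproic acid on day 1 raised 5 and lowered 7 (list median -0.03, 15.7% of all genes called), led by Angptl8 (-1.57 ± 0.55, adjusted p = 0.038), Angptl4 (-0.90 ± 0.28) and the receptor gene Lrp1 (0.79 ± 0.13). On day 4 (2.36% called) it raised 1, Gpihbp1 (0.40 ± 0.12), the anchor of lipoprotein lipase on capillary endothelium, and on day 11 (9.03% called) also 1, Apoc2 (0.29 ± 0.08), which encodes the activator of that lipase.

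Of 16 measured nuclear receptors and coregulators of lipid genes, valproic acid on day 1 raised 1 and lowered 4 (list median -0.10, 15.7% of all genes called). The falls were led by the coactivator gene Ppargc1b (-1.18 ± 0.21, adjusted p = 7.4e-06), Pparg (-0.74 ± 0.22) and Esrra (-0.56 ± 0.12). On day 4 (2.36% called) it lowered 1, Ppara (-0.48 ± 0.14), which had also fallen on day 1 (-0.53 ± 0.14, adjusted p = 0.0031). On day 11 (9.03% called) valproic acid raised 2 and lowered 2, among them Srebf1 (-0.63 ± 0.16), Nr1i3 (0.62 ± 0.17) and Ppargc1a (0.48 ± 0.16). Amiodarone raised Nr1i3, the gene of the receptor CAR, on day 1 (0.70 ± 0.19, adjusted p = 0.047, 0.796% of all genes called). It changed 0 of the 16 on day 4 (6.21% called), and on day 11 (7.05% called) it raised Nr1i2 (0.48 ± 0.13) and lowered Nr1h3 (-0.41 ± 0.12) and Hnf4a (-0.36 ± 0.08). Tetracycline at 133 mg/kg changed 0 genes of the 3 lists on any day in limma (backgrounds 0.65%, 0% and 0% on days 1, 4 and 11). As no gene at all was called on days 4 and 11, those counts say nothing particular about the lists. In the list of lipase regulators and receptors the lowest uncalled change with tetracycline at 133 mg/kg was -1.53, on day 11. The lowest changes of that list on day 4 were not called either, at -1.36 with amiodarone and -1.52 with valproic acid.

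The tissue label held against its markers, since 8 measured hepatocyte markers were among the brightest genes, with Alb at 13.79 on average, and the 5 cholangiocyte markers were all below the array medians. The hepatocyte marker sum differed between some groups all the same. It was 15.68 to 15.79 with valproic acid on day 1 against 15.84 to 15.89 with PBS, where Alb (-0.14 ± 0.03) and Ttr (-0.20 ± 0.03) fell along with Fabp1 and Slc27a2 (15.7% of all genes called). With amiodarone it was 15.75 to 15.80 on day 4 against 15.83 to 15.89, with 1 of the 8 markers called lower (6.21% of all genes called). On day 11 it was 15.75 to 15.78 against 15.83 to 15.88, with 3 called lower (7.05% of all genes called). Fabp1 rose in both of these groups.

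Markers of other cell types also moved. With valproic acid on day 4, 7 of the 12 Kupffer cell and macrophage markers were called higher (2.36% of all genes called), among them Vsig4 (0.95 ± 0.19) and Cd5l (0.87 ± 0.24). The summed level of the 12 was 11.14 to 11.80 there against 10.22 to 11.35 with PBS. With 250 mg/kg on day 11, where Cd36 and Vldlr rose, that sum was 11.04 to 11.94 against 10.67 to 11.13, with 0 of the 12 called (4.26% of all genes). With 500 mg/kg on day 11, where both rose as well, it was 10.69 to 11.14.

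The summed level of 12 endothelial markers was lower with amiodarone, without overlap, at 9.32 to 9.42 on day 4 against 9.43 to 9.67 and at 9.24 to 9.47 on day 11 against 9.61 to 9.67. Of the 12, 0 were called on day 4 (6.21% of all genes) and 2 were called lower on day 11 (7.05%), Clec4g and Eng. Clec4g, the brightest of the 12 at 8.88 on average, weighs most in the sum. With valproic acid at 500 mg/kg the sum was 9.70 to 10.00 on day 1 against 9.57 to 9.75, 9.78 to 10.05 on day 4 against 9.43 to 9.67, and 9.44 to 9.62 on day 11. That dose raised 1 and lowered 1 of the 12 on day 1 (15.7% called), raised 1 on day 4 (2.36%) and changed 0 on day 11 (9.03%). At 250 mg/kg the sum was 9.71 to 10.01, above PBS without overlap, and the scavenger receptor gene Stab2 was called higher (0.33 ± 0.10, adjusted p = 0.046). Stellate cell and fibroblast markers summed to 10.11 to 10.34 with amiodarone on day 4 and 10.73 to 10.76 with valproic acid on day 4, against 10.40 to 10.48 with PBS. On day 11 they summed to 10.11 to 10.42 with amiodarone against 10.43 to 10.59. Of these 10 markers, amiodarone lowered 1 on day 4 (6.21% called) and 2 on day 11 (7.05%), and valproic acid raised 1 on day 4 (2.36%). Dcn, the brightest of them at 9.88 on average, weighs most in that sum.

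Adipocyte markers summed to 5.53 to 5.64 with amiodarone on day 4 against 5.26 to 5.46, and to 5.34 to 5.87 on day 11 against 5.09 to 5.53. Lipe was the 1 called marker of the 5, with a rise on day 11 of 0.72 ± 0.17 with amiodarone and of 0.56 ± 0.17 with 500 mg/kg of valproic acid (adjusted p = 0.025). Of all genes, 7.05% and 9.03% were called in those groups. The part of all these cells in the changes of the 10 genes was not tested.

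Over the 95 arrays, the genes were not 1 block. Cd36 and Vldlr went together most closely (Pearson r = 0.77 over all arrays and 0.57 within groups), followed by Fabp1 and Slc27a2 (0.70 and 0.53). Cd36 and Lpl had r = 0.66 over all arrays and 0.07 within groups. Fabp4 and Slc27a2 had the lowest value, -0.30. These correlations are descriptions over arrays that share vehicles and treatments.

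The genes whose pattern over the 95 arrays was most like that of each called gene were found by Pearson r. For Cd36 they were Ehhadh (0.90), Acadl (0.88) and Acadm (0.88), for Vldlr Mgst3 (0.82), Idh2 (0.82) and Cyp2b10 (0.78), and for Lpl Mogat1 (0.72), Gstm4 (0.68) and Hsd17b11 (0.67). For Fabp1 they were Ces2a (0.83), Gpd2 (0.80) and Yaf2 (0.79), for Slc27a2 Abcb4 (0.86), Kdsr (0.81) and Eci2 (0.81), and for Fabp2 Acat1 (0.75), Chdh (0.69) and Mmadhc (0.68). For Acsl3 they were Mvd (0.78), Stk38l (0.74) and Pxdc1 (0.72), for Acsl4 Usp14 (0.69), Hsd17b12 (0.68) and Hprt (0.65), and for Slc27a1 Mogat1 (0.66), Acot8 (0.66) and Decr1 (0.64). By Spearman's rho Mgst3, Abcb4, Acat1 and Gpd2 came first for Vldlr, Slc27a2, Fabp2 and Fabp1, while Mogat1 had a rho of 0.31 with Lpl and 0.25 with Slc27a1. For the other called genes, a gene not named here came first by rho. Within groups, Pearson r with Lpl was 0.04 for Mogat1, 0.19 for Gstm4 and 0.02 for Hsd17b11. It was 0.08 for Slc27a1 with Mogat1 and 0.51 for Cd36 with Ehhadh.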

How the data were processed

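The deposited log2 values of 95 liver arrays, normalized by the authors with RMA per the submitters' processing notes, were used as given; the RMA software and its settings are not given in the sources used here. Of 17306 probe sets, 16464 had 1 gene symbol in the platform annotation and 842 had none, and all 16464 matched RefSeq by Entrez ID. Array numbers, not read depth, limit the precision, and 0 pairs of arrays were identical. Nothing in the labels says that arrays are of separate animals, so p-values measure the spread between arrays, which may be partly technical.

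A mean per group was fitted on all arrays with limma 3.58.1 in R 4.3.3 (74 residual degrees of freedom), for 31 comparisons, with Benjamini-Hochberg adjustment over all genes in each. Figures used matplotlib 3.10.9 in Python 3.11.15. The fit was tested on simulated data. Alternative settings of weights, arrays fitted, filter, scaling, blocks and variance prior were tried, and leaving out each array.

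All 10 genes are named. Of each pathway list the text names up to 3 called genes with the largest change at the high dose, and for each called gene the 3 other genes with the highest Pearson r over all arrays. The genes and lists were chosen with earlier results of these data known. Marker levels are log2 of the summed linear values of a list.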

Additional observations from a re-analysis of the deposited data

Results flagged for a closer look

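Within the groups, 14 values of a gene stood apart from the others of their group by Dixon's test, of 210 tests of the 10 genes in 21 groups. Chance flags about 1 in 20 groups. Array 67 of valproic acid at 250 mg/kg stood apart for 3 genes, high for Lpl (6.97) and Acsl3 (5.10) and low for Fabp1 (12.5). That array also had the highest Kupffer cell and macrophage marker sum of its group, 11.94, and the lowest array quality weight of all, 0.474, and the part of these in the 3 values was not tested. PBS array 25 of day 1 was high for Vldlr (2.86).

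For Lpl, array 48 of tetracycline at 133 mg/kg on day 11 was low (5.92) and array 36 at 14.8 mg/kg was high (6.89). For Fabp1, array 27 of the tetracycline vehicle on day 1 was low (12.8), and for Fabp2, array 4 of valproic acid on day 4 was high (10.2). For Slc27a1, array 77 of the tetracycline vehicle on day 1 (3.17) and array 78 of valproic acid at 500 mg/kg on day 11 (3.22) were high. For Slc27a2, array 17 of amiodarone on day 4 (12.3), array 7 of tetracycline on day 4 (11.98) and array 49 of valproic acid at 500 mg/kg on day 11 (12.05) were low, and array 76 of the tetracycline vehicle on day 11 (12.4) was high.

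The effect of a high dose differed between days, by limma's test of the difference, for 11 pairs of gene and days. With amiodarone the effect on day 4 exceeded that on day 1 by 1.51 for Cd36, 1.88 for Lpl and 0.86 for Acsl4, and that on day 11 exceeded it by 1.93 for Cd36 and 2.02 for Lpl. With valproic acid the day 4 effect exceeded the day 1 effect by 1.17 for Lpl and 0.31 for Fabp1, and the day 11 effect exceeded it by 1.85 for Cd36, 1.31 for Lpl, 0.72 for Vldlr and 0.32 for Fabp1. These are log2 values.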

How the results depend on the processing

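No gene's called change reversed its direction under any of the alternatives run. Of the values of single genes, 5958 kept their side of the threshold, 45 passed it and 56 no longer did, and of the counts of called genes 596 stayed within 1.5 times and 13 did not. Amiodarone on day 4 gave 4 called genes in place of 7 without PBS array 40, with 4 to 8 over all arrays left out. Valproic acid on day 1 gave 3 in place of 5 in a fit of only the arrays compared. On day 11 it gave 1 in place of 2 with dim genes left out, which removes Vldlr from the genes tested. The amiodarone difference between days 4 and 1 gave 1 in place of 3 with blocks of 24 sample numbers, and 1 to 4 with an array left out. For valproic acid it gave 0 in place of 2 in a fit of only the arrays compared, and 1 to 4 with an array left out, 1 without array 79 or array 8 and 4 without array 4. The cause was not tested for these. A repeated quantile normalization changed the share of higher genes among all called genes from 81.1% to 70.9% with 20 mg/kg of amiodarone. With valproic acid it went from 77.8% to 60.0% at 125 mg/kg, 64.9% to 51.9% at 250 mg/kg, 65.2% to 51.4% at 500 mg/kg on day 11 and 63.6% to 51.5% in the dose trend. It went from 83.3% to 71.4% in the amiodarone difference between days 11 and 1, and centring took it from 50.5% to 40.0% with tetracycline on day 1. No paired analysis was possible because the sample numbers in the labels are not shared between groups. Levels of Vldlr and Slc27a1 near the array medians limit what their fold changes can show.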
